A study of Mus musculus with 15 samples.

Results

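The mitochondrial genome encodes 6 subunits of respiratory complexes III, IV and V in the mouse, and their mRNAs were followed in plasma extracellular vesicles (EVs), the membrane particles that cells release into blood. The 6 genes were taken by symbol: mt-Cytb of complex III, mt-Co1, mt-Co2 and mt-Co3 of complex IV, and mt-Atp6 and mt-Atp8 of complex V. All 6 were among the 43472 gene rows of each library. RNA-seq was performed on 15 libraries, of which 3 were from C57BL/6 wild type mice (WT), 6 from dystrophic mice (Dys) labelled Sgcb null, which lack β-sarcoglycan of the muscle membrane, and 6 from hypertrophic mice (Hyp), whose muscles are enlarged. The labels give the Hyp genotype as MAGIC F1, whereas the study's methods give Mstn-null for the sequenced samples, so the animals are called hypertrophic here. The study's methods give an age of 3 to 6 months, and the labels name no agent and no further allele. Each sample held the EVs of 2 to 3 pooled mice, and the RNA was amplified before single reads of 50 bases were made. The methods give 10 mice per genotype for plasma collection, enough for at most 5 separate pools, so the 6 Dys and the 6 Hyp libraries cannot all be separate pools of those mice. Which libraries share mice is not stated, n counts libraries, and p-values measure the spread between these libraries, part of which may be technical. The labels name serum, a stranded mRNA kit and polyA RNA, and the methods name plasma and an unstranded kit.

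For 6 libraries, Dys replicates 4 to 6 and Hyp replicates 1 to 3, the sample title and the deposited counts carry different library numbers, in that a number of one condition is found on counts of the other. The genotype label set the groups, and the main values are also given with these 6 libraries exchanged and with the 9 matching libraries alone. Sgcb had reads in 1 library, Hyp replicate 3, where 695 reads were counted. That library is among the 6 crossed ones, and its counts would be Dys-derived if exchanged. With no Sgcb reads in the WT-derived libraries either, a count of 0 could not serve as a check of the labels. Which part of the gene the 695 reads came from is not given by counts per gene, and their bearing on the exchange was not tested. Mstn had no reads in the 15 libraries. Reads counted on genes ran from 27227 to 32563362 per library, with medians of 601506 in WT-, 2419660 in Dys- and 3513270 in Hyp-derived EVs. Levels are in CPM, the reads of a gene divided by the reads on all genes of its library and scaled to 1000000. A gene at 0 could have had up to 3 counts, which is 110 CPM in the shallowest library, WT replicate 1, and 0.0921 CPM in the deepest, Dys replicate 6. Such limits hold for counting error alone, since amplified copies are not independent molecules. The EV marker Cd9, a membrane tetraspanin, had reads in every library (3924 to 33354 CPM), whereas Cd63 had reads in 10 and Cd81 in 11.

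The respiratory chain passes electrons from complex I and other donors through complex III to complex IV, where oxygen is reduced, and complex V uses the proton gradient so formed to make ATP. Most subunits are encoded in the nucleus, and the few that the mitochondrial DNA encodes are largely hydrophobic membrane proteins at the core of each complex. Mitochondrial DNA is transcribed as long precursors that are cut into single mRNAs and rRNAs, so its mRNAs start from shared transcripts and reach different levels through processing and decay. Skeletal muscle is rich in mitochondria, and blood platelets and leukocytes contain them as well. In bulk EV RNA, fewer vesicles from a source and less RNA per vesicle cannot be told apart.

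The sequences of the 6 genes are shown because stretches of mitochondrial DNA have also been copied into the nuclear genome. A 50-base read from a stretch with a perfect nuclear copy aligns equally well at both places. Gene positions and sequences below are from GENCODE M21 on the mouse build mm10 (GRCm38), positions in a gene count from 1 at its 5′ end, and each of the 6 genes is a single exon on the plus strand of chromosome M. The first 50 bases of mt-Co2, mt-Co3 and mt-Atp6 are shown because each is identical, base for base, to the first 50 bases of an annotated pseudogene on the minus strand of chromosome 1.
mt-Co2, chrM:7013-7062, and Gm28661, chr1:24615516-24615565: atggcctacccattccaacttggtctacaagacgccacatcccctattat
mt-Co3, chrM:8607-8656, and Gm28437, chr1:24613922-24613971: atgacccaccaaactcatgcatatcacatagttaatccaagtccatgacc
mt-Atp6, chrM:7927-7976, and Gm10925, chr1:24614602-24614651: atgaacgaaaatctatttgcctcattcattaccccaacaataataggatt

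The identity continues over the whole copies. Gm28661 matched 681 of 681 bases of mt-Co2, Gm28437 matched 783 of 783 bases of mt-Co3 and Gm10925 matched 678 of 678 bases of mt-Atp6. For mt-Co1, Gm29216 on chromosome 1 matched 486 of 492 bases at the 3′ part of the gene. All 6 differences fall in the stretch shown here, where capitals mark the differing bases.
mt-Co1, chrM:6381-6430, plus strand: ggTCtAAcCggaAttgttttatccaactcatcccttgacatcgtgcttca
Gm29216, chr1:24616148-24616197, minus strand: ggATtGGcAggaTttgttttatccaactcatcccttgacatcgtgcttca

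With the base of mt-Co1 given before its position and the base of Gm29216 after it, the differences are T1056A, C1057T, A1059G, A1060G, C1062A and A1066T. After base 1066 the copy was identical to mt-Co1. A second copy of mt-Co1, Gm13340 on chromosome 2, is as long as the gene and matched 1508 of its 1545 bases. For mt-Cytb no annotated nuclear transcript shared 50 bases in a row, and its first 50 bases are shown as an example of sequence without such a copy.
mt-Cytb, chrM:14145-14194, plus strand: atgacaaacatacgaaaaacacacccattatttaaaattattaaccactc

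The genes of complex V also overlap each other on the same strand. The last 43 bases of mt-Atp8 are the first 43 bases of mt-Atp6, shown in capitals with 20 bases on either side.
mt-Atp8 and mt-Atp6, chrM:7907-7989, plus strand: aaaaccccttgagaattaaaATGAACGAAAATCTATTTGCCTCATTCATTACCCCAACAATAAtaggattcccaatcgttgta

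mt-Atp6 and mt-Co3 share 1 base. A read in the shared bases may be assigned to neither gene, and 0.711 to 1.37 reads per 100 gene reads were set aside as ambiguous over all genes.

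When every 50-base window of each gene was looked up in the annotated nuclear transcripts, the 6 genes fell apart. All 635 windows of mt-Co2, 734 of 735 of mt-Co3 and 629 of 632 of mt-Atp6 were found there. For mt-Co1, which encodes the catalytic subunit of complex IV, 765 of 1496 windows (51.1%) were found, and the 731 that were not found all start at or before base 1066. None of the 1095 windows of mt-Cytb and none of the 155 windows of mt-Atp8 was found. For mt-Atp8 this covers annotated transcripts only: the 233 bases between Gm10925 and Gm28661 on chromosome 1 (chr1:24614652-24614884) are as long as the 233 bases between the matching ends on chromosome M (chrM:7694-7926), where most of mt-Atp8 lies. The sequence of that gap was not analysed here.

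The 6 genes split in their counts as well. mt-Cytb and mt-Co1 had reads in 15 of 15 libraries, with 272490 and 315171 reads in all. mt-Atp8 had 1696 reads in 6 libraries, mt-Atp6 had 105 reads in 5, mt-Co3 had 2 reads in 2 and mt-Co2 had 1 read in 1. The 3 genes with nearly all windows in nuclear copies thus had 108 reads between them. Together mt-Co1 and mt-Cytb made up 98.4% to 100% of the reads of the 6 genes in each library.

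**Figure D1:**
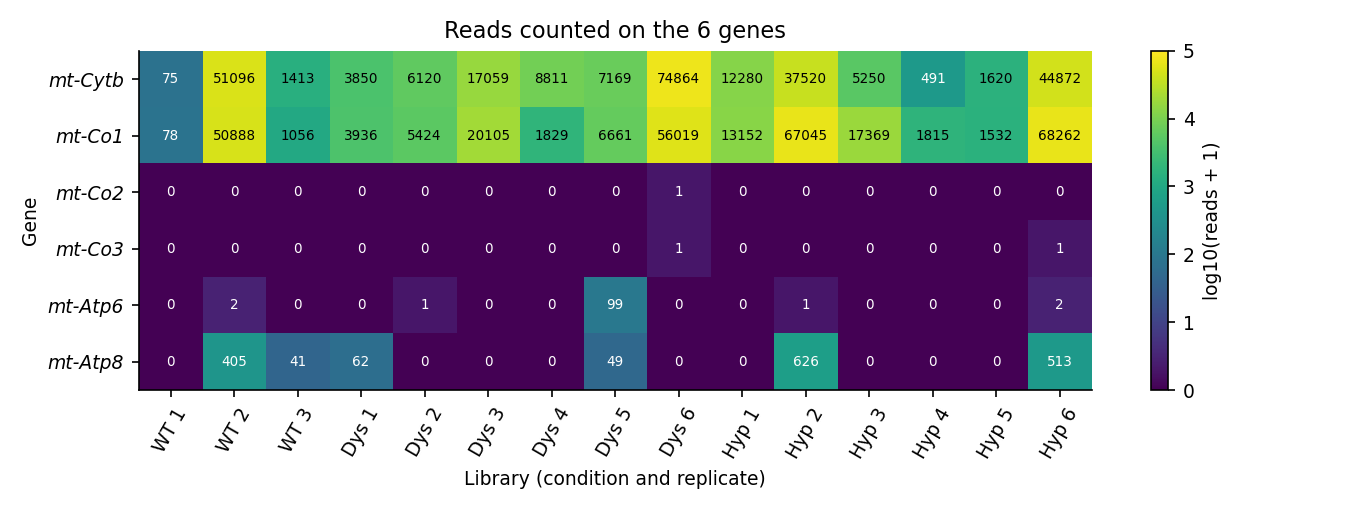
Reads counted on each of the 6 genes (rows) in each of the 15 libraries (columns), with the count printed in each cell and the colour on a scale of log10(reads + 1). mt-Cytb and mt-Co1 have reads in every column, mt-Atp8 in 6, and the other 3 rows are at or near 0 except for 99 mt-Atp6 reads in Dys replicate 5.

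mt-Co2 encodes the subunit that takes electrons from cytochrome c. Its single read came from Dys replicate 6, the deepest library. mt-Co3, another core subunit of complex IV, had 1 read in Dys replicate 6 and 1 in Hyp replicate 6. mt-Atp6, which forms the proton path of complex V, had 99 reads in Dys replicate 5, 2 in WT replicate 2, 1 in Dys replicate 2, 1 in Hyp replicate 2, 2 in Hyp replicate 6 and 0 in the remaining 10 libraries. Dys replicate 5 therefore held 99 of its 105 reads, and all other libraries were at or under the limit that a count of 0 allows.

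The nuclear copies had few reads as well. Gm28661 had 5 reads in 2 libraries, Gm28437 had 6 reads in 2 libraries and Gm10925 had 116 reads in 4 libraries, 112 of them in Dys replicate 6. Gm29216 had 3 reads in 3 libraries, and Gm13340 had 382 reads in 11. Gm13341 on chromosome 2, which shares 224 windows with mt-Co2, had 57 reads in 10 libraries, and Gm11512 on chromosome 11, which shares 5 windows with mt-Co1, had 1 read. The deposited summary lines held 0.727 to 1.71 alignments that were not unique for each read counted on a gene, with a median of 1.15. Which genes those alignments belonged to cannot be read from the files, and their part in the low counts was not tested.

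The same comparison over all 13 mitochondrially encoded mRNAs gives a wider view. The 7 subunits of complex I included mt-Nd3 and mt-Nd4l, with 98.0% and 98.8% of windows found in nuclear transcripts, which had 254 reads in 3 libraries and 0 reads. mt-Nd1, with 0 of 908 windows found, and mt-Nd4, with 827 of 1329, were counted in 15 libraries. The 5 genes with nearly all windows copied had a median of 0 CPM per kb over the 15 libraries. mt-Nd6 also had no reads with 0 of 470 windows found, and it is the mRNA of the 13 that lies on the minus strand. As a description over 13 genes that share libraries and precursors, a low share of copied windows went with reads in most libraries, with mt-Atp8 and mt-Nd6 as exceptions.

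**Figure D2:**
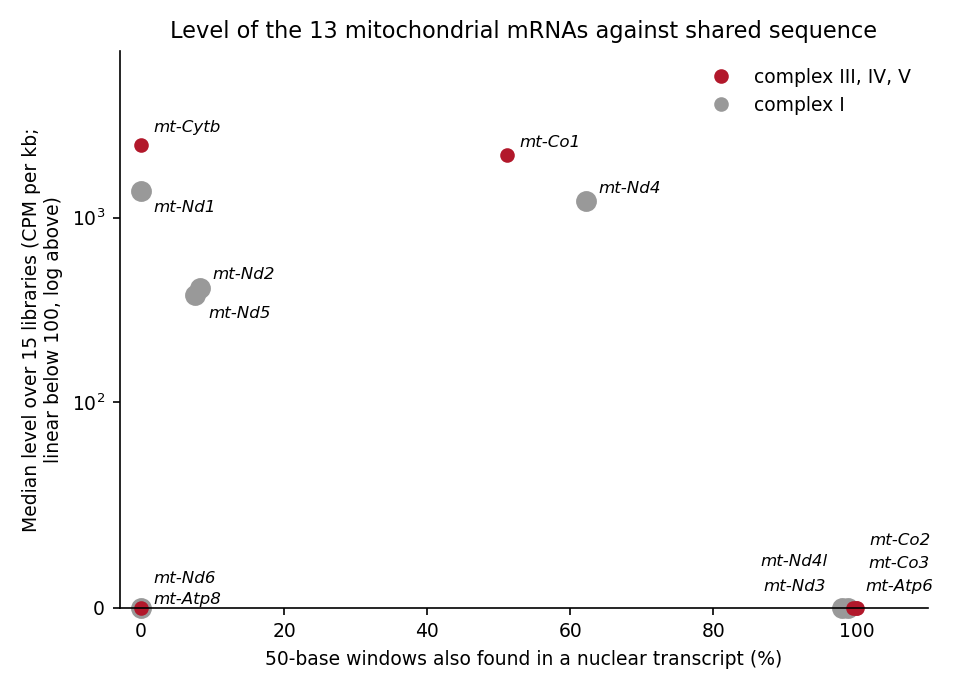
For the 13 mitochondrially encoded mRNAs, the percentage of 50-base windows also found in an annotated nuclear transcript (x axis) against the median level over 15 libraries in CPM per kb of gene (y axis, linear below 100 and logarithmic above). The 5 genes at the right, mt-Co2, mt-Co3, mt-Atp6, mt-Nd3 and mt-Nd4l, lie at a median of 0, mt-Co1 (51.1%) lies among the highest, and mt-Atp8 and mt-Nd6 lie at 0 on both axes.

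Per length, mt-Cytb and mt-Co1 stood at the top and close to each other. The mean level was 3440 ± 1717 CPM per kb for mt-Cytb, which encodes the cytochrome b core of complex III, and 3116 ± 2208 CPM per kb for mt-Co1 (SD, n = 15). mt-Atp8 followed at 123 ± 180 CPM per kb, then mt-Atp6 at 3.47, mt-Co3 at 0.0158 ± 0.0512 and mt-Co2 at 0.00299 ± 0.0116 CPM per kb. For mt-Atp6 the libraries ran from 0 to 50.3 CPM per kb. The lowest 3 were each within their spread of 0, so their order among themselves is not resolved. The mean of mt-Atp8 was within its spread of 0 as well, and in the 9 libraries without mt-Atp8 reads its place above them is not resolved. Within libraries, mt-Cytb minus mt-Co1 was 0.30 ± 0.96 on the log2 scale per length (SD, n = 15), which is within the spread between libraries. mt-Cytb was higher in 3 of 3 WT-, 6 of 6 Dys- and 2 of 6 Hyp-derived libraries. These counts rest on the labels. Dys replicates 4 to 6, where mt-Cytb was higher, and Hyp replicates 2 and 3, where mt-Co1 was higher, are among the crossed libraries. Divided by the windows not found in nuclear transcripts in place of length, the same difference was -0.72, and mt-Co1 was higher in 14 of 15 libraries. The order of these 2 genes thus depends on the length they are divided by.

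By mean CPM, mt-Co1 ranked 21 and mt-Cytb ranked 24 among the 13281 genes with a read in any library. Their spread between libraries was wide. The coefficient of variation over the 15 libraries was 70.9% for mt-Co1 and 49.9% for mt-Cytb, beside a median of 58.5% for the 169 genes counted in every library. Counting error alone gave a median of 1.23% for mt-Co1 and 1.18% for mt-Cytb, and at most 11.5% in the shallowest library.

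mt-Cytb was at 2755, 6603 and 2349 CPM in WT replicates 1 to 3. In Dys-derived EVs it ran from 2299 to 6363 CPM with a median of 3062, and in Hyp-derived EVs from 1089 to 6944 CPM with a median of 3841. The ranges of the 3 conditions overlapped, and the lowest library, Hyp replicate 4, was Hyp-derived. The means were 3902 ± 2348 in WT-, 3791 ± 1707 in Dys- and 4097 ± 2373 CPM in Hyp-derived EVs (SD, n = 3, 6 and 6), and they differed by far less than the spread between libraries.

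mt-Co1 was at 2865, 6576 and 1756 CPM in WT replicates 1 to 3. In Dys-derived EVs it ran from 1137 to 7500 CPM with a median of 2409, and in Hyp-derived EVs from 2569 to 11558 CPM with a median of 6886. Hyp replicates 2, 3 and 6, at 11558, 9111 and 10564 CPM, were above all other libraries, while Dys replicate 3 at 7500 CPM was above the remaining Hyp-derived libraries. The ranges of the 3 conditions overlapped, as they did for the other 5 genes. Of the genes tested, 0.479% lay above and 0.276% below WT in Dys with no overlap in CPM, 0.174% above and 0.276% below WT in Hyp, and 0.0145% above and 0.145% below Dys in Hyp. The means of mt-Co1 were 3732 ± 2524 in WT-, 3090 ± 2287 in Dys- and 7081 ± 3791 CPM in Hyp-derived EVs (SD, n = 3, 6 and 6). Hyp replicates 2 and 3 are among the crossed libraries. With these exchanged, the order of the means turned, to 6102 ± 3838 in Dys- and 4069 ± 3457 CPM in Hyp-derived EVs (SD, n = 6 and 6). In the 9 matching libraries the means were 4458 ± 2668 in Dys- and 6416 ± 3606 CPM in Hyp-derived EVs (SD, n = 3 and 3), which is within the spread.

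**Figure D3:**
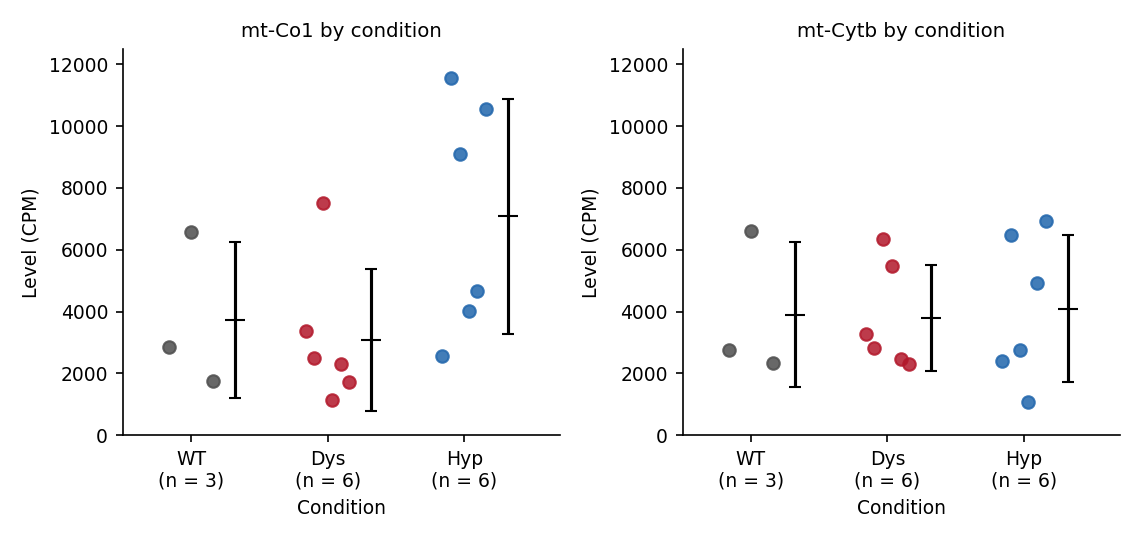
Levels of mt-Co1 (left) and mt-Cytb (right) in CPM in each library (points) by condition, with the mean and SD as a bar beside the points. For mt-Cytb the 3 conditions overlap, with the lowest library, at 1089 CPM, in Hyp, and for mt-Co1 3 Hyp-derived libraries lie above all others while the remaining 3 overlap with WT and Dys.

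Of the 6 genes, 3 passed the filter on low counts (mt-Cytb, mt-Co1 and mt-Atp8). With edgeR's quasi-likelihood test on 6887 genes and a Benjamini-Hochberg adjusted p under 0.05, none of the 3 was called in any comparison. The share called of all genes tested was 0.0145% between Dys and WT, 0.029% between Hyp and WT and 0.0145% between Hyp and Dys, so few calls were made anywhere. At an unadjusted p under 0.05 there were 139, 552 and 823 genes, and mt-Co1 between Hyp and Dys was the single member among them. DESeq2 called 19.1%, 22.2% and 4.69% of the genes, and again no member.

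The fitted level of mt-Co1 differed by 1.23 on the log2 scale between Hyp and Dys (SE 0.53, edgeR adjusted p = 0.191), which did not pass the threshold. With the 6 crossed libraries exchanged the difference was -0.59 (SE 0.54). In the 9 matching libraries it was 0.62 (SE 0.76), of the same sign and smaller than its standard error. Against WT, mt-Co1 differed by 0.72 (SE 0.66, edgeR adjusted p = 0.652) in Hyp- and by -0.51 (SE 0.63, edgeR adjusted p = 0.880) in Dys-derived EVs. With the crossed libraries exchanged these differences were -0.094 and 0.49, and in the 9 matching libraries 0.41 and -0.21. Without WT replicate 2, the deepest WT library, they were 1.61 and 0.37.

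For mt-Cytb, the fitted log2 difference was -0.25 (SE 0.69) between Dys and WT, -0.16 (SE 0.69) between Hyp and WT and 0.09 (SE 0.57) between Hyp and Dys. The edgeR adjusted p-values were 1, 1 and 0.9998. Each difference was smaller than its standard error, and without WT replicate 2 the first was 0.53 and the second 0.58. For mt-Atp8 the standard errors ran from 2.74 to 3.24 on the log2 scale, so even changes of several log2 units could not be seen. Its fitted differences were -1.87, -0.49 and 1.38 in the same order. The median log2 difference of all genes tested was 1.38, 0.66 and -0.52.

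**Figure D4:**
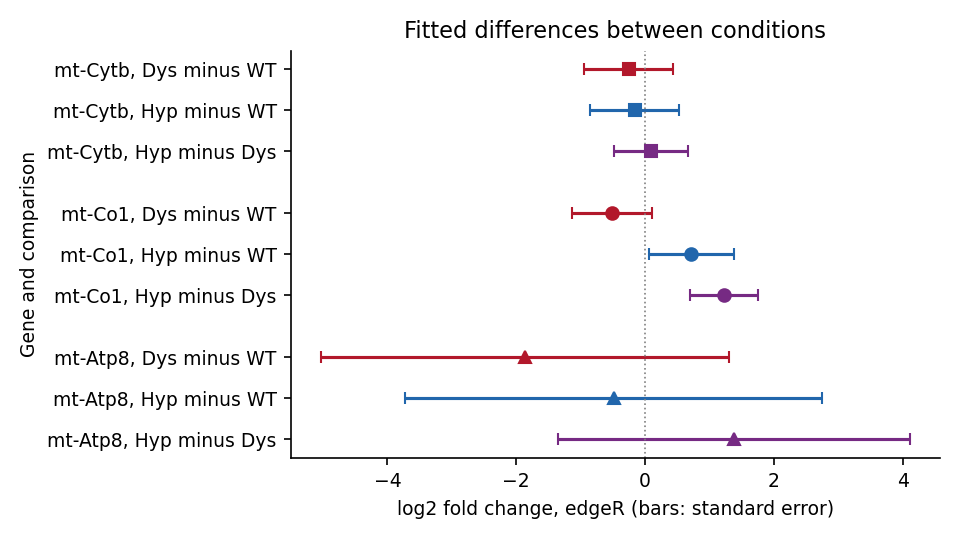
Fitted log2 fold changes (x axis) with standard errors (bars) from edgeR for mt-Cytb, mt-Co1 and mt-Atp8 in the 3 comparisons. The largest difference relative to its error is mt-Co1 between Hyp and Dys at 1.23, and the bars of mt-Atp8 reach over several log2 units.

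mt-Atp8 encodes a small stalk subunit of complex V, and it was counted in 2 libraries of each condition. It was counted in WT replicates 2 and 3, with 405 and 41 reads, in Dys replicates 1 and 5, with 62 and 49 reads, and in Hyp replicates 2 and 6, with 626 and 513 reads. In those 6 libraries it was at 17.0 to 108 CPM, and mt-Co1 exceeded it by 3.50 ± 0.94 on the log2 scale per length (SD, n = 6). The other 9 libraries had 0 reads, among them the deepest library, Dys replicate 6. At the ratio of mt-Atp8 to mt-Co1 pooled over the 6 libraries with mt-Atp8 reads, Dys replicate 6 would have held 480 mt-Atp8 reads. Dys replicate 3 would have held 172, Hyp replicate 3 would have held 149 and Hyp replicate 1 would have held 113. The zeros of these 4 libraries lie far below that ratio, which comes from libraries taken for having reads. What the zeros went with was not tested.

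The ratio between the 2 abundant mRNAs does not depend on the rest of a library. mt-Co1 reads per mt-Cytb read were 1.04, 0.996 and 0.747 in WT replicates 1 to 3. In Dys-derived EVs the ratio ran from 0.208 to 1.18 with a median of 0.908, and in Hyp-derived EVs from 0.946 to 3.70 with a median of 1.65. The ranges overlapped, with 4 of 6 Hyp-derived libraries above every WT- and Dys-derived one. The means were 0.928 ± 0.158, 0.829 ± 0.336 and 2.05 ± 1.17 (SD, n = 3, 6 and 6). With the crossed libraries exchanged the means were 1.54 in Dys- and 1.34 in Hyp-derived EVs, and in the 9 matching libraries they were 1.03 and 2.05.

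Mitochondrial rRNA, encoded on the same strand as the 6 mRNAs, was a second scale. mt-Rnr1 and mt-Rnr2 together held 19.8 ± 0.855% of gene reads in WT-, 10.3 ± 4.52% in Dys- and 10.4 ± 4.31% in Hyp-derived EVs (SD, n = 3, 6 and 6). These rRNA genes were the calls made against WT: mt-Rnr2 fell by 1.05 in Dys (SE 0.153, edgeR adjusted p = 4.18e-08) and by 1.16 in Hyp (SE 0.152, edgeR adjusted p = 2.39e-10) on the log2 scale, and mt-Rnr1 fell by 1.21 in Hyp (SE 0.222, edgeR adjusted p = 0.000154).

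Per 1000 of these rRNA reads, mt-Co1 was at 9.25 to 31.8 in WT-, 6.29 to 62.8 in Dys- and 34.2 to 96.8 in Hyp-derived EVs. The Hyp-derived libraries all lay above WT on this scale, as did 0.581% of the genes tested, while 0.131% lay below WT in Hyp and 1.13% above WT in Dys. This scale was chosen after the levels were seen, and the rRNA below it was itself lower in Hyp. With the crossed libraries exchanged, Hyp ran from 6.29 to 96.8 and overlapped with WT, whereas Dys ran from 32.1 to 83.9 and lay above it. In the 9 matching libraries both Dys, at 32.1 to 62.8, and Hyp, at 34.2 to 96.8, lay above WT. The lowest Dys value, 32.1, was barely above the highest WT value, 31.8. For the exchanged and the matching libraries the share of genes tested with no overlap was not computed, so nothing is read from these separations. mt-Cytb was at 12.4 to 31.9 in WT-, 27.2 to 53.3 in Dys- and 18.0 to 63.7 per 1000 rRNA reads in Hyp-derived EVs, with overlap between all conditions.

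**Figure D5:**
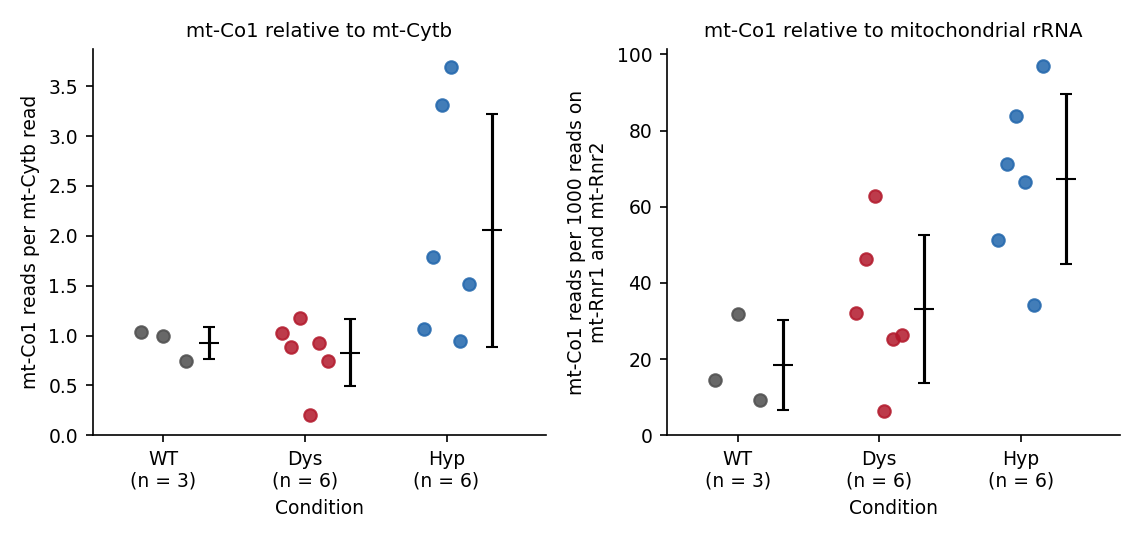
mt-Co1 reads per mt-Cytb read (left) and per 1000 reads on mt-Rnr1 and mt-Rnr2 (right) in each library (points) by condition, with the mean and SD as a bar beside the points. On the left 4 Hyp-derived libraries lie above all WT and Dys points, and on the right all Hyp points, from 34.2 to 96.8, lie above the WT points, which end at 31.8.

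Summed over the 6 genes, the level was 7675 ± 4866 in WT-, 6898 ± 3566 in Dys- and 11209 ± 5794 CPM in Hyp-derived EVs (SD, n = 3, 6 and 6). Single libraries ran from 4019 CPM in Dys replicate 6 to 18134 CPM in Hyp replicate 2, and the conditions overlapped. With the crossed libraries exchanged the means were 10147 in Dys- and 7960 CPM in Hyp-derived EVs, and in the 9 matching libraries they were 8639 and 10763 CPM. Of the reads on all 13 mitochondrially encoded mRNAs, the 6 genes held 47.2% to 59.4% in WT-, 53.4% to 76.8% in Dys- and 56.2% to 80.0% in Hyp-derived EVs.

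Among the 167 other genes counted in every library, those whose CPM ordered the libraries most like the sum of the 6 genes were mt-Nd4 (Spearman's rho 0.54), mt-Nd5 (0.52), the chaperone gene Dnajb4 (0.48), the calponin gene Cnn2 (0.44) and the platelet chemokine gene Ppbp (0.41), over 15 libraries. For mt-Cytb the nearest was mt-Nd4 (0.74), and for mt-Co1 it was Ppbp (0.68). mt-Co1 and mt-Cytb had a rho of 0.57 with each other, and their rho with depth was 0.15 and 0.28. All these values share library totals and amplification and describe these libraries only.

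The nuclear subunits of the same complexes were counted less evenly. Of 36 nuclear genes, Cox5a and Cox8a, both of complex IV, had reads in every library. A library held between 10 of the 36 in Hyp replicate 5 and all 36 in Dys replicate 6. Those libraries had 328710 and 32563362 reads on genes, while WT replicate 3, with 601506, held 32 of the 36. The part of depth was not tested. All 36 were tested with edgeR, and none was called in any comparison. For complex III the 3 with the most CPM were Uqcrh at 399, Uqcr11 at 144 and Uqcrb at 100.3 CPM on average over 15 libraries. For complex IV they were Cox5a at 888, Ndufa4 at 330.1 and Cox4i1 at 330.0 CPM, and for complex V Atp5b at 393, Atp5a1 at 340.1 and the ATPase inhibitor gene Atpif1 at 329 CPM.

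The median log2 difference between Hyp and Dys was -0.94 over the 9 genes of complex III, -0.15 over the 11 of complex IV and -1.16 over the 16 of complex V, beside -0.52 over all genes tested. Between Hyp and WT the medians were -0.51, -0.78 and -1.71, beside 0.66. Between Dys and WT they were 0.75, -0.21 and -0.25, beside 1.38. The 3 muscle isoforms of complex IV subunits were nearly absent: Cox6a2 had reads in 1 library, Dys replicate 4, Cox7a1 in 1 and Cox8b in 0.

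The genes that make, keep and assemble these products were thin as well. Of 9 genes for mitochondrial transcription and mRNA stability, 7 had reads, led by the transcription factor gene Tfam in 8 libraries, the RNA-binding partner gene Slirp in 7 and Lrpprc, whose product holds mitochondrial mRNAs stable, in 5. The polymerase gene Polrmt had none. Of 14 genes for assembly and copper delivery all had reads, among them Surf1 in 9 libraries, Uqcc2 in 8 and Cox17 in 5. In these lists 6 and 6 genes were tested and none was called. The 7 complex I genes of the mitochondrial DNA had 4 members tested and none called, with median log2 differences of -1.04 between Dys and WT, -0.28 between Hyp and WT and 0.89 between Hyp and Dys.

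Markers of possible source cells were set beside these levels. All 7 platelet markers had reads, and their sum was 18361 to 28281 CPM in WT-, 9575 to 20524 in Dys- and 14771 to 32963 CPM in Hyp-derived EVs. Among them Ppbp, at a mean of 11443 CPM, was the gene whose order of libraries was most like that of mt-Co1, and its part in the level of mt-Co1 was not tested. Pf4, another platelet chemokine gene, had a rho of -0.14 with mt-Co1. The 7 erythroid markers summed to 22933 to 88148 CPM in WT-, 47208 to 155950 in Dys- and 29999 to 88291 CPM in Hyp-derived EVs, and Hbb-bs, a β-globin gene, was the call between Hyp and Dys (log2 difference -1.01, SE 0.200, edgeR adjusted p = 0.00306). This call rests on the labels: with the crossed libraries exchanged, and in the 9 matching libraries, edgeR called no gene between Hyp and Dys. Hemoglobin genes held 8.88% of gene reads in Dys- and 5.25% in Hyp-derived EVs on average. Exchanged, the means were 6.72% and 7.41%, and in the 9 matching libraries 8.33% and 5.38%. The 7 leukocyte markers summed to 1180 to 5179 CPM over the 15 libraries. Of 7 skeletal muscle markers, 6 had reads in some library, none had reads in every library, and their sum ran from 0 to 239 CPM. Those with the highest mean were Acta1 at 42.6 CPM, with reads in 8 libraries, Mylpf at 8.70 and Ckm at 6.93 CPM, each with reads in 2. The fast myosin gene Myh4 was at 0 throughout.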

How the data were processed

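The authors aligned the reads with TopHat 2.0.2 to mm10 and deposited raw counts per gene symbol for each library, made with HTSeq (per the labels), without normalization. The HTSeq version, its mode and the annotation were not given in the sources used here. The 5 summary lines were left out of library sizes. CPM was computed over all gene rows. Differential expression was tested with edgeR 4.0.16 (R 4.3.3, limma 3.58.1) with TMM, filterByExpr and a quasi-likelihood fit to 15 libraries and 3 conditions. DESeq2 1.42.0 was an alternative, and DESeq, named by the study, was not run. Data simulated with known changes, at a far smaller spread than that of these libraries, were used to test the edgeR steps. The biological coefficient of variation fitted to the real data was 3.04, so the simulation does not show how well changes are found at this spread. Standard errors were taken from the F statistic. Tables were handled in Python 3.11.15 with pandas 2.3.3.

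Windows of 50 bases were looked up in GENCODE M21 nuclear transcripts on both strands. Named were the 6 genes, in each list the genes called and the 3 with the highest mean CPM, nuclear copies with reads, and the 5 most alike genes by Spearman's rho. The members and lists were chosen with earlier results of these data known.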

Additional observations from a re-analysis of the deposited data

Results flagged for a closer look

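Among 22 sets of values (the level of each gene, the sum of the 6 genes and their ratios, each in a condition of 6 libraries), 7 held a library set apart from the others by Dixon's test at the 95% level. That test flags about 1 in 20 sets by chance when values are continuous, and this number cannot be set against it: in 3 of the 7 every other library was at 0, so a single read was enough, mt-Atp6 and mt-Atp8 were mostly at 0 as well, and the sum repeats mt-Co1. In Dys-derived EVs, replicate 3 stood apart for mt-Co1, at 7500 CPM beside 3362 CPM in the next library, and for the sum of the 6 genes, at 13863 CPM beside 6704 CPM. Replicate 5 stood apart for mt-Atp6, at 34.3 CPM beside 0.463 CPM, and replicate 1 for mt-Atp8, at 53.0 CPM beside 17.0 CPM. Replicate 6 stood apart for mt-Co2 and for mt-Co3, at 0.0307 CPM each, which is a single read in the deepest library. In Hyp-derived EVs, replicate 6 stood apart for mt-Co3 at 0.155 CPM, again a single read. Dys replicates 5 and 6 are among the 6 libraries with crossed numbers, and if exchanged their flagged values would be Hyp-derived.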

How the results depend on the processing

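No paired analysis was possible because the replicate numbers follow accession order and pair nothing, so there was no replicate block to fit. The counts of genes called moved with the setting in each comparison, from 1 (Dys and WT), 2 (Hyp and WT) and 1 (Hyp and Dys), but none of the 6 genes was called in any. Of the 6, mt-Co2, mt-Co3 and mt-Atp6 were tested only without a filter, where no gene at all was called. DESeq2 gave 1315, 1528 and 323, library sizes without TMM gave 3 between Dys and WT, and the 9 matching libraries gave 3 and 0 in the first and last comparison. Without a filter edgeR gave 0, 0 and 0 (580, 1120 and 4382 genes had an unadjusted p under 0.05), and without hemoglobin and mitochondrial rRNA genes 0 in each (126, 526 and 816). Exchanged, the crossed libraries gave 2 between Dys and WT and 0 between Hyp and Dys (344 at an unadjusted p under 0.05), and the 9 libraries' 0 stood beside 155. Leaving out each library gave 1 to 2, 1 to 3 and 0 to 2. The summed level without each library was 4896 to 9425 CPM in WT, 5505 to 7473 in Dys and 9824 to 12458 in Hyp.

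The log2 differences of mt-Cytb turned to 0.080 (Dys and WT) and 0.14 (Hyp and WT) with DESeq2, and to 0.082 (Hyp and WT) without TMM. With the crossed libraries exchanged, mt-Co1 turned to 0.49, -0.094 and -0.59 in the 3 comparisons, and mt-Atp8 to -0.75 between Hyp and Dys. Leaving out each library, mt-Cytb ran from -0.63 to 0.53, from -0.54 to 0.58 and from -0.20 to 0.32, mt-Co1 from -0.86 to 0.37, from 0.36 to 1.61 and from 0.83 to 1.43 (lowest edgeR adjusted p = 0.105), and mt-Atp8 from -3.43 to -1.24, from -1.27 to 0.13 and from 0.50 to 3.17. Signs turned without WT replicate 2 (mt-Cytb, mt-Co1), WT replicate 3 (mt-Atp8), Hyp replicate 1 (mt-Cytb, mt-Atp8), Hyp replicate 4, 2 or 6 (mt-Cytb). mt-Cytb minus mt-Co1 turned to -0.13 with no length and to -0.72 per window not found, and was 0.13 to 0.42 without each library. Per mitochondrial rRNA read, a scale added after seeing the data like the windows, the log2 ratio of means between Dys and WT turned to 0.84 for mt-Co1 and 0.98 for mt-Cytb. With only Hyp and Dys fitted, mt-Atp8 did not pass the filter. The cause of these shifts was not tested. Depth limits mainly the shallowest library, WT replicate 1, where a count of 0 allows 110 CPM.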
